A study of Mus musculus with 8 samples.

Results

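Endothelial cells line the blood vessels, and in the brain they form the blood-brain barrier. Here they were the cells of the D1Tom sort with a Cldn5 count above 0 and a count above 0 in at least 2 of Flt1, Cdh5, Pecam1 and Ctla2a. The rule took 258 of the 11494 D1Tom cells, out of 22876 cells in the whole series. Because the cells were selected on measured counts, their levels of these and other genes against the remaining cells are a description and were not tested.

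The study addressed what loss of the transcription factor Foxp2 does to frontal cortical cells at postnatal day 7 (P7), and the D1Tom sort took live tdTomato+ cells from frontal isocortex of mice carrying the Drd1a-tdTomato line 6 transgene, a bacterial artificial chromosome reporter for the dopamine D1 receptor. All D1Tom mice were Foxp2 flox/flox and had been backcrossed to C57BL/6J. The 2 control libraries came from littermates without Cre, and the 2 libraries of conditional knockouts (cKO) from mice that also carried Emx1-Cre, which recombines in progenitors of the cortical neurons and glia. Control 1 and cKO 1, both female, were prepared on 1 day (batch 1), and control 2, female, and cKO 2, male, on another (batch 2). Nothing in the labels says how many animals went into a library, so the p-values measure only the spread between these libraries. The exons flanked by the lox sites are not named in the labels, so a 3' count of Foxp2 need not fall in the deleted part.

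Brain endothelial cells seal the vessel wall with tight junctions, of which claudin 5 is a main component, and carry transporters that bring glucose, amino acids and hormones across it. Their barrier character depends on Wnt ligands from neural cells, which act through Frizzled receptors and beta-catenin, while vessel growth depends on VEGF and its receptors. Pericytes, the mural cells of capillaries, sit within the same basement membrane as the endothelium.

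Of the 20 genes that stood highest over the other D1Tom cells, 13 had a promoter in the RefSeq table for GRCm38.p6. The 250 bases before the start are shown for the gene the rule began with, for a VEGF receptor of the rule and for a gene outside it, to set beside their shared high level in these cells. Cldn5 lies at chr16:18776597-18776846 on the plus strand, Flt1 at chr5:147726012-147726261 on the minus strand and Eng at chr2:32646345-32646594 on the plus strand. Capitals mark AGGAAG, a form of the core motif of ETS factors, on either strand.
Cldn5: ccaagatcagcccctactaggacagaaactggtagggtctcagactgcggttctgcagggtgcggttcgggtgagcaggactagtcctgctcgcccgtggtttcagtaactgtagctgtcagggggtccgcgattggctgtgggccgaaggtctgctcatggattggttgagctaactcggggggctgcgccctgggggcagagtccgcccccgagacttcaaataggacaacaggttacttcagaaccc
Flt1: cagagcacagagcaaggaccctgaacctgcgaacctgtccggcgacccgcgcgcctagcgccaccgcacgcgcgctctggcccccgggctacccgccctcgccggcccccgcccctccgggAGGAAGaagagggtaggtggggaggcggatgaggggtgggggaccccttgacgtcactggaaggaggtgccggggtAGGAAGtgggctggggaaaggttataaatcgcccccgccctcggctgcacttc
Eng: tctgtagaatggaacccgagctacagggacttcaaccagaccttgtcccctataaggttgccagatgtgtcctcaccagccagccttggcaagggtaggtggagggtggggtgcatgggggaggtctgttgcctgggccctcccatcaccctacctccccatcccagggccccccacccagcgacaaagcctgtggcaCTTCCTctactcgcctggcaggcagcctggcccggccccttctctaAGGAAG
The Flt1 and Eng windows held 2 matches each and the Cldn5 window 0. Among the 13 genes, 8 held AGGAAG in a listed promoter, against 29.5% of 32851 promoters of this length. The overlapping ETS form GGAAGT was in 6 of the 13 (19.7% of all promoters), CCGGAA in 3 (12.0%), the SOX motif ACAAAG in 3 (16.5%), the forkhead motif TGTTTAC in 0 (3.17%) and TATAAA in 3 (12.4%), each searched on both strands. A gene with more than 1 listed promoter was counted when any of them held the motif. The percentages count single promoters, so the 2 measures are not on an equal basis. A match describes the letters of the window and was not tied to binding.

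The cells were spread very unevenly over the libraries. Control 1 held 18 among 3206 cells (0.561%, 95% exact binomial interval 0.333 to 0.886%), and control 2 held 148 among 2395 (6.18%, 5.25 to 7.22%). In cKO 1 there were 14 among 2812 (0.498%, 0.272 to 0.834%), and in cKO 2 there were 78 among 3081 (2.53%, 2.01 to 3.15%). Both libraries of batch 2 were above both of batch 1, and batch 2 supplied 87.6% of the cells. The mean share was 3.37% ± 3.97 (SD, n = 2) in controls and 1.51% ± 1.44 in cKO, a ratio of 0.449 (exact permutation test, two-sided p = 0.667, where the smallest p this design allows is 0.333). The cKO share was 0.887 times the control share within batch 1 and 0.410 times within batch 2, and without control 2 the pooled ratio was 2.70. In the GTE sort, taken for the golli-τ-eGFP reporter, the same rule found 6, 3, 0 and 2 cells among 3948, 3071, 1440 and 2923, and the 0 of cKO 1 allows a share of up to 0.208% if 3 cells are taken as the limit that a count of 0 allows, or 0.256% by the exact interval.

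**Figure D1:**
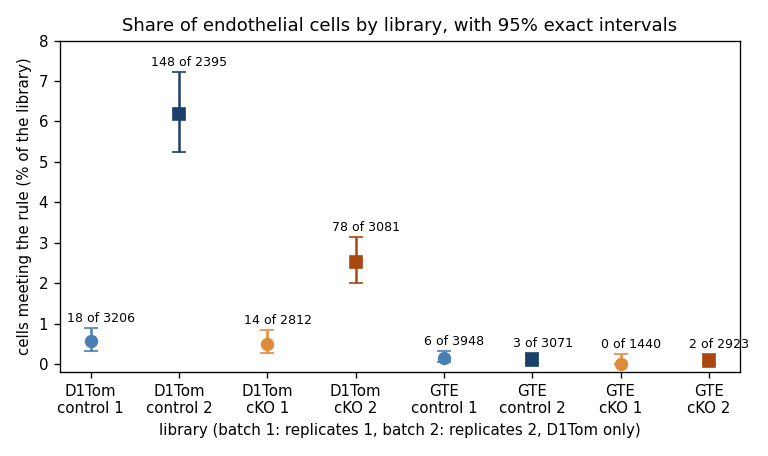
Share of cells that met the endothelial rule (percent of the library, vertical axis) in each of the 8 libraries, with 95% exact binomial intervals and the counts of cells. Control 2 (6.18%) and cKO 2 (2.53%) of the D1Tom sort, prepared in the same batch, lie above the other 6 libraries, which are all under 1%.

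The rule's threshold fell in a thinly filled range. Among cells with a Cldn5 count, 340 had none of the other 4 markers, 28 had 1, 9 had 2, 38 had 3 and 211 had all 4. The median Cldn5 count was 1 in the cells just outside (1 other marker), 8 in those just inside (2 others) and 55 in those with all 4. Kdr, the main VEGF receptor of endothelium and no part of the rule, had a count in 14.3% of cells just outside, in 66.7% just inside and in 98.1% of cells with all 4. Another 16 cells had 2 of the other markers but no Cldn5 count.

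Endothelial cells had more counts than the rest. Their median was 19920.5 counts and 4559 genes per cell, against 8339.5 counts and 2694 genes in the other D1Tom cells, and by library the ratio of medians ran from 1.76 in control 2 to 4.04 in control 1. In the order control 1, control 2, cKO 1, cKO 2, which all lists of 4 values keep, their summed counts were 636478, 3657291, 465498 and 1538970. The median mitochondrial share was 1.99% against 4.48%. The rule asks for counts in several genes, which cells with more counts meet more easily. The 220 endothelial cells that also met 1 or more of the 5 other class rules described below had a median of 21529.5 counts. In the 38 that met none it was 12440. What the higher depth reflects was not tested. Of the cells in each D1Tom library, 43 to 56 had a barcode that also occurred in another library.

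The genes that stood highest over the other cells were those of barrier endothelium. Levels are sums over the endothelial cells of a library, given as CPM, a gene's counts scaled to a common library total. Of 2608 genes at 50 CPM or more in endothelial cells of every library, 20.1% were at least 2-fold higher than in the other cells in all 4, on a scale with 1 CPM added. The top 20 included the rule's Cldn5, Flt1, Ctla2a and Cdh5. Outside the rule they included Kdr, Cd93 (a receptor of endothelial cells), Eng (a TGF-beta co-receptor), Aplnr (the apelin receptor), Adgrf5 and Adgrl4 (adhesion G protein-coupled receptors), the forkhead factors Foxq1 and Foxf2, and the transporters Slc22a8 and Slc38a5. Pglyrp1, Rassf9, Rasgrp3, Igfbp7 and RP23-162H6.1 were also among them, as was Higd1b, a gene of brain pericytes.

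Kdr stood at 638, 695, 784 and 615 CPM in the 4 libraries, and at 0.671, 1.86, 0.620 and 1.59 CPM in the other cells of those libraries. Foxq1, a forkhead gene of brain endothelium, stood at 467, 406, 522 and 370 CPM. Slc22a8, an organic anion transporter, stood at 319, 378, 378 and 348 CPM, the narrowest spread of these 3. The genotypes overlapped for Kdr and for Foxq1. For every one of the 20 genes the lowest endothelial level was far above the highest level in the summed other cells. In the 19 cells that met the mural rule described below and not the endothelial rule, some pooled levels were closer. Igfbp7 stood there at 1466 CPM (lowest endothelial library 1487) and Higd1b at 883 CPM (lowest 538). The next highest of the 20 genes in those cells was Eng, at 87.5 CPM.

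**Figure D2:**
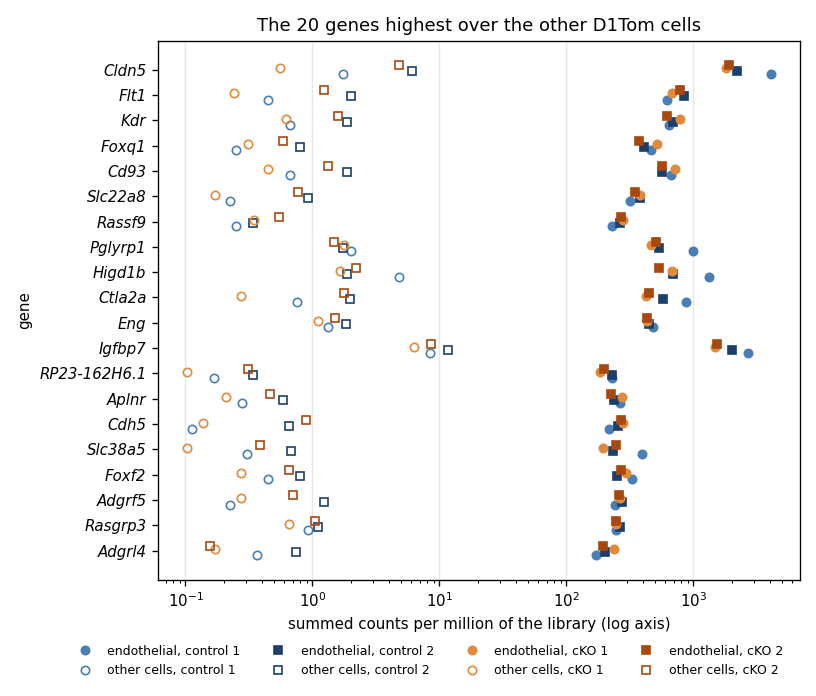
Level of the 20 genes highest over the other D1Tom cells (rows), in CPM on a log axis, for endothelial cells (filled) and all other cells (open) of each library. Filled points lie at 169.7 or more and open points at 11.7 or less, so that endothelial cells and the sum of all other cells do not overlap for any gene.

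Of 30 further genes of endothelial identity, 28 were at least 2-fold higher in all 4 libraries, against 6.72% of all 17836 genes of the table. Egfl7, a secreted factor of endothelium, reached 869, 872, 1035 and 801 CPM, and the transcription factor gene Sox17 reached 127, 142, 133 and 153 CPM. The exceptions were S1pr1, the sphingosine phosphate receptor, and Plvap. Plvap builds the diaphragms of fenestrated vessels, and its 1.57, 3.83, 4.30 and 6.50 CPM were below its mean of 24.0 CPM in the other cells.

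Transporters of the barrier followed the same pattern in 19 of 20. The amino acid transporter Slc7a5 stood at 1152, 793, 1074 and 883 CPM, the monocarboxylate transporter Slc16a1 at 679, 783, 672 and 872 CPM, and the glucose transporter Slc2a1 at 211, 194, 127 and 188 CPM. Iron handling was represented by the transferrin receptor Tfrc and the exporter Slc40a1. Lrp1, which clears ligands from the brain, was the exception and lower than in the other cells (mean 124 CPM there) in all 4. Slc2a1 had a count in 85.7% of endothelial cells and in 6.28% of the others, and in 53.2% and 4.05% of those that could be thinned to 5000 counts each.

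Junction genes were less exclusive, with 9 of the 16 measured at least 2-fold higher. Ocln (occludin) stood at 75.4, 76.0, 53.7 and 74.7 CPM against a mean of 0.633 CPM elsewhere, and Lsr, a component of tricellular junctions, at 325, 263, 198 and 206 CPM. Basement membrane genes were higher in 12 of 16. Sparc, a matrix protein gene, stood at 2875, 1817, 1858 and 1923 CPM, and the collagen IV gene Col4a1 at 927, 819, 782 and 918 CPM.

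Wnt ligand genes and part of the genes of the receiving side went in opposite directions. The ligand genes Wnt7a, Wnt7b and Ndp were at least 2-fold lower in endothelial cells than in the others in all 4 libraries, Wnt7b standing at 0, 10.7, 4.30 and 13.6 CPM against a mean of 79.0 elsewhere. On the receiving side the receptor genes Fzd4 and Fzd6, the co-receptor gene Adgra2 and the transcription factor genes Lef1 (130.4, 150.1, 161 and 132 CPM) and Tcf7 were higher. In all, 12 of 22 were at least 2-fold higher and 3, the ligand genes, at least 2-fold lower, and the rest met neither mark. Of the VEGF list 7 of 13 were at least 2-fold higher, Kdr among them, and 3 ligand genes, Vegfa, Vegfb and Angpt1, were lower.

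Capillary genes were detected more widely than arterial and venous ones. After thinning to 5000 counts, 253 of 254 cells had counts in at least 2 of 8 capillary genes, 163 in at least 2 of 9 venous genes and 105 in at least 2 of 10 arterial genes. These marks were not exclusive, since 68 cells carried both the arterial and the venous mark. In the other D1Tom cells thinned the same way, 40.5% reached the capillary mark, 8.06% the venous and 5.91% the arterial. The capillary list shares Mfsd2a, Tfrc, Slc16a1, Slc7a5 and Slco1c1 with the transporter list. Of the 10 arterial genes 4 were at least 2-fold higher than in the other cells in all 4 libraries, and 0 were at least 2-fold lower. Bmx and Gkn3, also of this list, were at 0 to 3.90 CPM in every library.

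Cell cycle genes were detected but not exclusive to these cells, with 0 of 15 at least 2-fold higher in all 4 libraries. Thinned to 5000 counts, 32.7% of endothelial cells (95% exact interval 26.9 to 38.8%) and 18.4% of the others had counts in at least 2 of the 15. Tip cell genes, which mark the leading cells of sprouts, summed to 1196 and 1338 CPM in the batch 1 libraries and to 838 and 793 CPM in the batch 2 libraries, so that batches and not genotypes separated. The apelin gene Apln, one of these, stood at 419, 256, 458 and 219 CPM. MHC class I genes had the opposite order: H2-K1 stood at 26.7, 137, 21.5 and 149 CPM and B2m at 393, 868, 234 and 765 CPM, higher in both libraries of batch 2.

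Genes of pericytes were present at high levels in most of the cells. Rgs5, a mural cell gene, stood at 2410.1, 2032, 1635 and 2210 CPM, and Pdgfrb, the receptor that recruits pericytes, at 279.7, 201, 127 and 222 CPM. Of 10 mural markers 6 were at least 2-fold higher than in the other cells, while Acta2, Myh11 and Tagln, the contractile genes of smooth muscle, were at 0 in both batch 1 libraries and at or under 11.05 CPM in the others. A rule of the same form for mural cells (Rgs5 with at least 2 of Pdgfrb, Kcnj8, Abcc9 and Vtn) was met by 190 of the 258 cells (73.6%). Only 19 cells met it without being endothelial by the rule. The median endothelial marker share was 0.412% of a cell's counts and the median mural marker share 0.333%, and in the 19 cells these were 0 and 1.04%. All 5 of Pdgfrb, Kcnj8, Abcc9, Vtn and Higd1b had counts in 132 cells, whose median was 25776 counts, and none of them in 18 cells, whose median was 12400.5. The label endothelial is therefore used for the rule, and how far single barcodes held material of more than 1 cell was not tested.

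**Figure D3:**
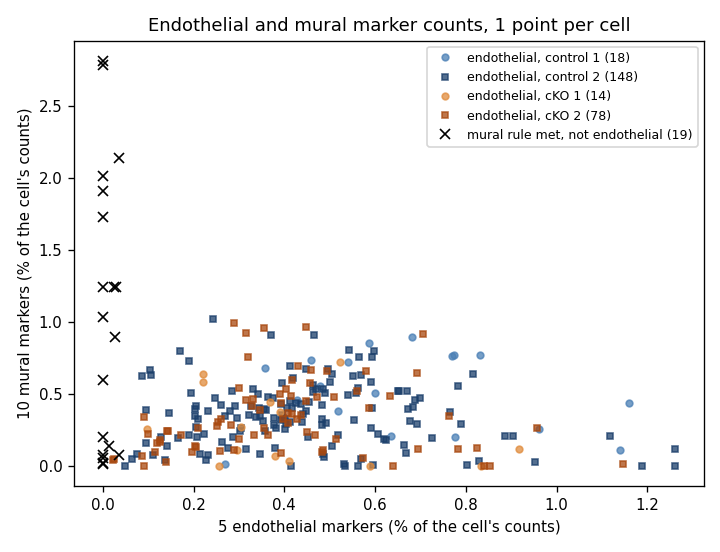
Counts in 5 endothelial markers (horizontal axis) and 10 mural markers (vertical axis), as a percent of each cell's counts, 1 point per cell. Points are the 258 endothelial cells by library and crosses the 19 cells that met only the mural rule; most endothelial cells carry both kinds of marker, whereas the crosses lie at or near 0 on the horizontal axis.

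Markers of neural cells were lower than in the other D1Tom cells but not absent. The astrocyte rule was met by 110 cells, the neuron rule by 50, the oligodendrocyte precursor rule by 30 and the microglia rule by 0. These shares leaned to cKO 2: its cells met the oligodendrocyte precursor rule in 24.4%, against 0, 6.08 and 14.3% in the first 3 libraries. In all 220 cells met at least 1 of the 5 rules and 38 met none. Summed over the list, 8 astrocyte markers stood at 465, 1007, 745 and 1377 CPM in the endothelial cells, and 8 neuron markers at 198, 542, 290.0 and 782 CPM. Microglial markers summed to at most 12.3 CPM. Red blood cell genes exceeded 1% of the counts in 37 endothelial cells (1, 26, 2 and 8 by library, up to 54.3% of a cell) and in 6 of the other 11236.

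Foxp2 was low in these cells. It stood at 7.86, 11.5, 15.0 and 11.7 CPM, on 5, 42, 7 and 18 counts, against 36.8, 42.2, 26.7 and 19.9 CPM in the other cells. Both cKO libraries were above both controls in the endothelial cells and below them in the other cells, and in the endothelial cells the difference did not pass (log2 fold change 0.35, SE 0.62, edgeR adjusted p = 1.00). Thinned to 5000 counts, Foxp2 had a count in 5.91% of endothelial cells and in 8.76% of the others, and Drd, taken as the D1 receptor gene that the reporter stands for, in 3.15% and 13.3%. In the 62 cells of the microglia class, which should lack both, the shares were 4.84% (3 cells) and 8.06% (5 cells), and with so few cells neither endothelial share is read as expression. Emx1, whose locus drives Cre in the cKO mice, stood at 1.57, 4.65, 2.15 and 4.55 CPM.

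The comparison of cKO with control endothelial cells found no gene past the threshold. Summed counts of the 2 cKO and 2 control libraries were compared with edgeR's quasi-likelihood test and Benjamini-Hochberg adjustment at 0.05. Of 9305 genes tested 0 were called (0%), with 175 (1.88%) at an unadjusted p under 0.05. DESeq2 called 1 of 14712 (0.0068%), and edgeR with the batch as a replicate block called 1 of 9305 (0.0107%), in both cases mt-Co2 and lower in cKO. Both cKO libraries were above both controls for 15.1% of the genes and below both for 17.3%. The genes named next had groups that did not overlap and the smallest p-values, and none of them passed. In batch 1 each level rests on 18 control and 14 cKO cells, and in batch 2 the libraries also differ in sex. The calls changed when 1 library was left out, which leaves 1 library in a genotype. Without control 2, the library with most of the control cells, the haemoglobin genes Hbb-bt, Hbb-bs, Hba-a2 and Hba-a1 came first. Neural genes such as Nrgn and Mapt were among those that followed. The Y-linked Ddx3y and Eif2s3y were called without cKO 1, which leaves the male cKO 2, and also without the filter on low counts. What these calls reflect was not tested.

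Among genes lower in cKO, the mitochondrial gene mt-Co2, a subunit of cytochrome c oxidase, had the smallest p. It stood at 61.3 and 133 CPM in controls (97.1 ± 50.6, SD, n = 2) and at 12.9 and 14.3 CPM in cKO (13.6 ± 0.994). The log2 fold change was -2.86 (SE 0.43, edgeR adjusted p = 0.293), and with the replicate block it was -2.96 (adjusted p = 0.0250). It passed when any 1 of the 4 libraries was left out, with adjusted p from 0.00133 to 0.0269. The other D1Tom cells showed the same order, at 83.9 and 253 CPM in controls and 8.68 and 33.0 CPM in cKO. Other mitochondrial genes went in different directions. Another subunit gene, mt-Co3, was lower in cKO (223 and 172 against 127 and 53.3 CPM), and mt-Atp6, which borders on mt-Co3, was higher (481 and 218 against 776 and 674 CPM). Copies of mitochondrial genes lie in the nuclear genome. Whether reads were shared among them was not tested, and these values stay uncertain.

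Apcdd1, a Wnt inhibitor that is itself a target of Wnt signalling, came next. It stood at 37.7 and 72.7 CPM in controls (55.2 ± 24.8, SD, n = 2) and at 6.44 and 11.05 CPM in cKO (8.75 ± 3.25), on 24 and 266 against 3 and 17 counts. The log2 fold change was -2.58 (SE 0.46, edgeR adjusted p = 0.619). A count was found in 10 of 18 and 110 of 148 control cells and in 2 of 14 and 12 of 78 cKO cells, which is lower in cKO in each batch. After thinning to 5000 counts these were 3 of 16, 51 of 148, 0 of 14 and 4 of 76, and the 0 of 14 allows a share of up to 21.4% by the limit of 3 cells, or 23.2% by the exact interval. Over 12 alternative settings the log2 fold change ran from -3.08 to -1.98. The edgeR adjusted p was 2.98e-05 without the filter on low counts, 0.0827 in the replicate block and 0.779 with DESeq2 size factors. The gene did not pass with DESeq2, nor with a stricter or looser rule for the cells. Levels in the other cells were 1.68 and 1.86 CPM (controls) and 0.413 and 0.388 CPM (cKO), and the 2 cell classes were not shown to differ in their change (difference -0.50 on the log2 scale, adjusted p = 1.00).

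The rest of the Wnt list was mixed. Of 22 genes 19 were tested, 0 were called, 2 had both cKO libraries above both controls (10.5%, beside 15.1% of all genes) and 5 below (26.3%, beside 17.3%), and their median log2 fold change was 0.07 beside 0.01 over all genes tested. Lef1, Axin2 (40.8, 44.8, 45.1 and 56.5 CPM) and Nkd1 (215, 355, 348 and 302 CPM), other genes that respond to Wnt, overlapped between the genotypes or lay higher in cKO. Beside Apcdd1 the genes below both controls were Tcf7 (127 and 112 against 112 and 90.3 CPM), Tcf7l1 (log2 fold change -0.50), Adgra2 and Ppard.

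Further genes lower in cKO had varied roles. Igfbp3, a binding protein of insulin-like growth factors, stood at 56.6 and 32.8 CPM in controls and 10.7 and 13.0 CPM in cKO. These levels came from 3 of 18, 40 of 148, 1 of 14 and 16 of 78 cells, and after thinning the shares of cells with a count overlapped between genotypes (12.5 and 11.5% against 7.14 and 13.2%). Without the cells over 1% in red blood cell genes its log2 fold change was -1.14. Mgp, an inhibitor of BMP and calcification, stood at 167 and 61.0 against 25.8 and 45.5 CPM, and its log2 ratio was -2.65 in batch 1 and -0.41 in batch 2. The tetraspanin Cd81 was lower in both batches (1727 and 914 against 582 and 684 CPM). The kinetochore gene Spc25 stood at 126 and 53.3 against 38.7 and 29.9 CPM. The others were Cracr2b, a regulator of calcium channels, Gpx8, a peroxidase of the endoplasmic reticulum, and Dusp2, a phosphatase of MAP kinases. Their log2 fold changes ran from -0.87 (Dusp2) to -1.79 (Igfbp3), and every edgeR adjusted p was 1.00. Dusp2 went to -0.25 without the cells that met the mural rule.

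Among genes higher in cKO, Edn1, the gene of the vasoconstrictor endothelin 1, was the one found almost only in endothelial cells. It stood at 15.7 and 16.1 CPM in controls (15.9 ± 0.297, SD, n = 2) and at 40.8 and 44.8 CPM in cKO (42.8 ± 2.84), a log2 fold change of 1.44 (SE 0.38, edgeR adjusted p = 1.00). That both cKO libraries lay above both controls was a condition for naming the gene. The levels rest on 10 and 59 counts in controls and 19 and 69 in cKO, so the SD of the controls is no measure of their precision. Of the other D1Tom cells 0.231% had an Edn1 count, against 29.5% of endothelial cells. After thinning 12.5, 10.8, 21.4 and 15.8% of the endothelial cells of the 4 libraries had one. These were 2 of 16, 16 of 148, 3 of 14 and 12 of 76 cells. Slc1a1, a glutamate transporter, stood at 12.6 and 14.5 against 47.3 and 26.6 CPM.

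The remaining genes higher in cKO were more abundant in neural cells. Pdgfra, the defining gene of oligodendrocyte precursors, stood at 9.43 and 15.6 CPM in controls and 45.1 and 52.6 CPM in cKO (log2 fold change 1.87, SE 0.39, edgeR adjusted p = 1.00). In the other cells it had the same order, at 156 and 148 CPM in controls and 186 and 188 CPM in cKO. The 2 cell classes were not shown to differ in its change (difference 1.48 on the log2 scale, edgeR adjusted p = 0.323). Gpr17, also of that lineage, Mt3 of astrocytes, and Nnat, Nap1l5, Ttc9b and Sncb of neurons had log2 fold changes from 0.77 (Mt3) to 2.03 (Gpr17). As deposited, a Sncb count was found in 10 of 18 control and 3 of 14 cKO cells of batch 1. In batch 2 it was found in 43 of 148 and 30 of 78. Gpr17 was in 4 of 18 and 2 of 14 cells, and in 9 of 148 and 17 of 78. Pdgfra was in 5 of 18 and 4 of 14 cells, and in 19 of 148 and 27 of 78. For Nnat, Nap1l5 and Ttc9b the share was higher in cKO in each batch. With only 1 other marker asked of a cell, Nnat went to 0.29, Sncb to 0.25 and Ttc9b to 0.40, and with all 4 asked Nap1l5 went to 0.36. Without the cells that met the mural rule Pdgfra was at 4.02 and Nap1l5 at 3.12, and none of these passed. Beside these, all 4 tested oligodendrocyte lineage markers had both cKO libraries above both controls, beside 15.1% of all genes. The same held for 1 of 8 astrocyte and 0 of 7 neuron markers. A fold change above 0 was found for 6 of 8 astrocyte and 7 of 7 neuron markers, beside 4745 of the 9305 genes tested. Of these markers 0 were called. In the other D1Tom cells the oligodendrocyte lineage list summed to 951 and 816 CPM in controls and 1172 and 983 CPM in cKO. The astrocyte list stood there at 3046 and 3238 against 3265 and 4425 CPM, also higher in both cKO libraries. The neuron list was lower in both, at 4190 and 4747 against 3747 and 3268 CPM. The summed levels of these lists in the endothelial cells were lowest in control 1, at 47.1 CPM for the oligodendrocyte lineage against 128 to 231 CPM in the other 3 libraries. Their part in the result was not tested.

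**Figure D4:**
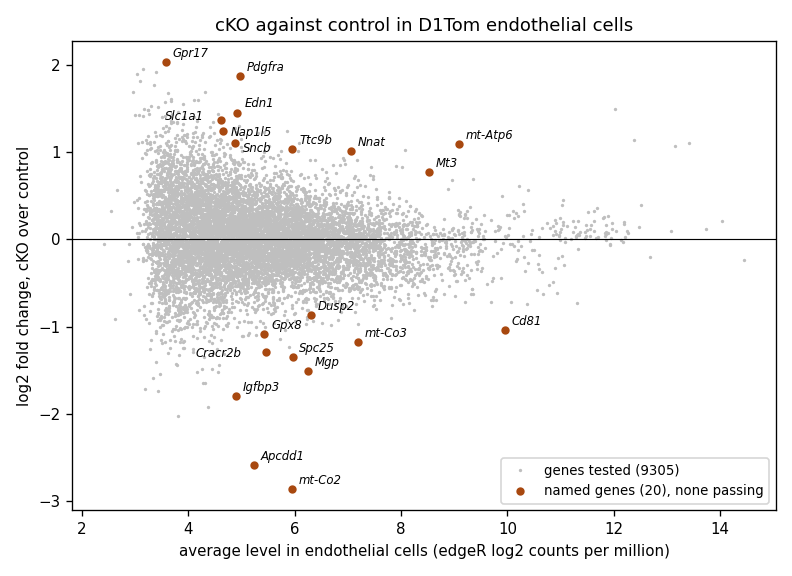
Log2 fold change of cKO over control (vertical axis) against average level (edgeR log2 CPM) for the 9305 genes tested in endothelial cells. The 20 named genes are marked; mt-Co2 (-2.86) and Apcdd1 (-2.58) lie lowest, and no gene passed the adjusted threshold.

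**Figure D5:**
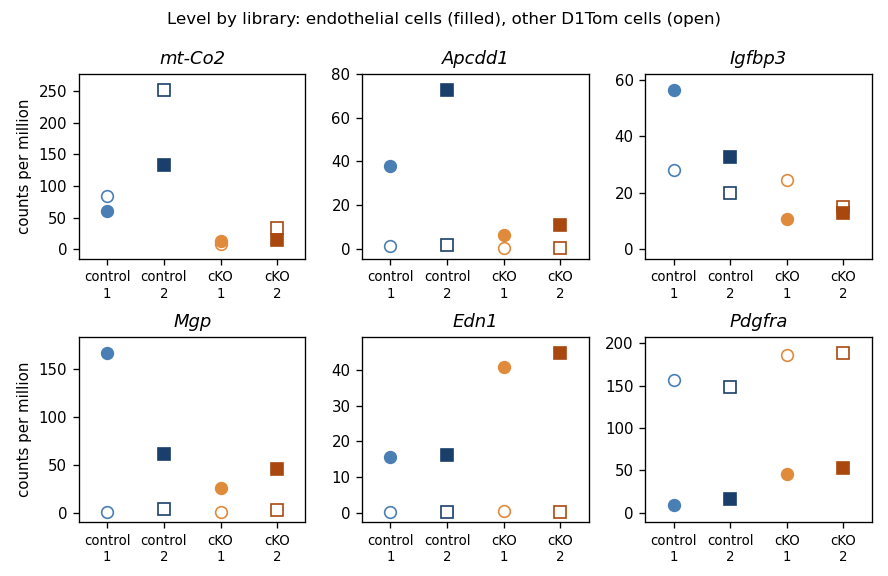
Level (CPM) of 6 of the named genes in each library, in endothelial cells (filled) and the other D1Tom cells (open). Both cKO libraries lie below both controls for mt-Co2, Apcdd1, Igfbp3 and Mgp and above them for Edn1 and Pdgfra in endothelial cells. In the other cells mt-Co2, Apcdd1, Pdgfra and Edn1 follow the same order, Edn1 at only 0.124 to 0.517 CPM. Igfbp3 and Mgp overlap between the genotypes there.

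No gene of the lists was called between genotypes, and the medians of the endothelial lists and of the mural list ran from -0.42 to 0.14 beside 0.01 for all genes. Endothelial identity genes, of which 29 of 30 were tested, had a median log2 fold change of -0.10, with 9 genes below both controls (31.0%, beside 17.3% of all genes) and 2 above. Those 9 included Emcn (259 and 127 against 81.6 and 107 CPM), Vwf (178 and 177 against 64.4 and 126 CPM) and Icam2, genes of the endothelial surface and of clotting. The barrier transporters had a median of 0.06 over 20 genes, with 4 below and 2 above, the 2 being Tfrc and Slc40a1. Tight junction genes had a median of 0.12 over 15, capillary genes -0.08 over 8 and venous genes -0.20 over 8. Of 6 arterial genes tested 3 lay below both controls, Mgp among them, and the median was -0.39. Mural markers had a median of -0.42 over 8, with Kcnj8 (261 and 185 against 155 and 125 CPM), Vtn and Higd1b below both controls (37.5%) and the other 5, Rgs5 and Pdgfrb among them, overlapping. The summed level of the mural list was 4784 against 2831 CPM in batch 1 and 3515 against 3500 CPM in batch 2. Notch genes (median -0.13 over 11) had 0 of 11 outside the overlap, and cell cycle genes a median of -0.25 over 15. VEGF and angiopoietin genes had a median of -0.20 over 11, BMP and TGF-beta genes 0.00 over 14, basement membrane genes -0.06 over 15, and MHC class I and interferon genes -0.33 over 11. Dissociation and immediate early genes, which respond to handling of the tissue, had a median of -0.30 over 13, with 5 below both controls (38.5%, beside 17.3% of all genes), Fos, Jun, Junb, Ier2 and Hspb1, and 2 above, and their part in the other values was not tested. The median was 0.02 over 11 for tip cell genes 0.02 over 11. Forkhead genes had 4 of 8 above both controls (50%, beside 15.1% of all genes), Foxp1, Foxo1, Foxc1 and the Foxp2 described above, and 2 of 8 below both (25%), Foxo3 and Foxl2, with log2 fold changes between -0.41 and 0.35.

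Whether the genotype difference was another in endothelial cells than in the other D1Tom cells was tested as an interaction, with the library as a term. Of 14086 genes 2 passed (0.0142%), Hbb-bt and Hba-a2, genes of haemoglobin in red blood cells. Leaving out 1 library gave 5 without control 1, 66 without control 2, 31 without cKO 1 and 1 without cKO 2. In endothelial cells Hbb-bt stood at 198, 4163, 9704 and 2079 CPM and Hba-a2 at 830, 5859, 11377 and 2743 CPM. The genotypes overlapped for both, with cKO 1 highest and control 1 lowest. Without the cells over 1% in red blood cell genes neither passed (interaction on the log2 scale -0.18 and -1.31, edgeR adjusted p = 1.00). Haemoglobin genes are near-identical pairs, and counts may be split between them. The next genes, none past the threshold, were the neuronal Gda, Neurod6 and Nrgn on the higher side and Hmgb2, Spc25, Hist1h2an, Ccna2 and Hist1h2ao, genes of dividing cells, on the lower side. Ccna2, a cyclin gene, stood at 91.1 and 58.0 CPM in control and 34.4 and 35.1 CPM in cKO endothelial cells, and at 26.3 and 24.1 against 35.7 and 36.1 CPM in the other cells (difference -1.62, SE 0.42, edgeR adjusted p = 0.197).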

How the data were processed

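Cells were sorted, captured with 10x Chromium 3' chemistry (v2) and sequenced per the labels' protocols. The submitters' processing notes name Cell Ranger 2.1.1, UMI-tools 0.5.4, STAR 2.5.2b, featureCounts and the builds mm10 and GRCm38.p6. The authors deposited whole-number counts per gene and cell, and the fraction of mitochondrial counts per cell was used as deposited. The number of values of 2 over that of values of 1 was 1.69 and 1.54 in the control and cKO library of batch 1 and 0.723 and 0.307 in those of batch 2, so a count need not be 1 molecule. D1Tom libraries held 27323298 to 36379194 counts. Cell filters before deposit are not given in the sources used here, no doublet caller was run, and Xist and the reporters were not analysed here.

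The cells and the gene lists were chosen with earlier results of these data known. Counts were summed per library over the endothelial cells and tested with edgeR 4.0.16 (filterByExpr, TMM, quasi-likelihood, Benjamini-Hochberg at 0.05) over all genes. DESeq2 1.42.0 was an alternative. The interaction was fitted on 8 sums with library as a term. The batch shared by same-numbered libraries is given in the labels, and their deviations correlated at 0.24 over 9305 genes. Genes named between genotypes were those called, and the 10 with the smallest p in each direction whose groups did not overlap. Genes named over other cells were the 20 with the highest lowest-library ratio at 50 CPM or more, and for the interaction the 5 with the smallest p in each direction. Lists give examples by level and p, and Lef1, Axin2, Nkd1 and Tcf7 beside Apcdd1 were chosen after their values were seen. Cells with under 5000 counts were left out of thinned shares (2 in control 1 and 2 in cKO 2 among endothelial cells). Exact binomial intervals cover counting error only.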

Additional observations from a re-analysis of the deposited data

Results flagged for a closer look

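The genotype difference was another in endothelial than in the other D1Tom cells for 2 genes, both of haemoglobin. For Hbb-bt the interaction was 2.43 on the log2 scale (SE 0.45, edgeR adjusted p = 0.000885), and for Hba-a2 it was 2.04 (SE 0.40, adjusted p = 0.00186). The endothelial level was highest in cKO 1 and lowest in control 1 for both, the 2 libraries with the fewest endothelial cells, and neither passed without the cells over 1% in red blood cell genes.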

How the results depend on the processing

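The count of genes called between genotypes was 0 and changed to 1 with DESeq2, 14 without the filter on low counts and 1 with the replicate block, and leaving out 1 library each gave 2 to 123. The 123 came without control 2, which leaves control 1 as the lone control, assumed to vary like the other group. It was 0 under the other scaling, the stricter count filter, stricter or looser rules, thinning to 5000 counts, and without cells that met another class's rule or were over 1% in red blood cell genes. The interaction count of 2 became 0 with DESeq2 size factors in edgeR, 1 without cells that met another class's rule, 0 without cells over 1% in red blood cell genes (chosen after seeing the data), and 1 to 66 leaving out 1 library each, 66 without control 2. Hbb-bt ran from -3.63 (reversed, without control 2) to 4.49 leaving out 1 library each and went to -0.18 without the red blood cell gene cells, and Hba-a2 to -1.31 without them. Mt3 reversed to -0.19 without cells that met another class's rule, where 1258 genes were tested. With at least 1 other marker Nnat fell to 0.29, Sncb to 0.25 and Ttc9b to 0.40, with all 4 Nap1l5 to 0.36, without mural-rule cells Dusp2 went to -0.25, and without the red blood cell gene cells Igfbp3 to -1.14, each with no call. The share ratio was 0.148 to 2.70 leaving out 1 library each, and 0.887 within batch 1. The arterial mark was met by 82.6% of cells as deposited, by 41.3% after thinning, and by 96.9% and 62.4% with at least 1 or 3 genes. The venous mark was met by 92.6%, 64.2%, 98.8% and 81.4% in that order, and the capillary mark by 100%, 99.6%, 100% and 100%. The replicate block changed no other call among the named genes. Unless stated, the cause was not tested. Depth limits batch 1 most, where 18 and 14 cells carry each level.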
